A study of Homo sapiens with 6 samples.

Results

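The HOX cluster genes were taken as every gene whose symbol is HOX followed by the cluster letter A, B, C or D and a paralogue number, which gave 39 of the 19977 genes in the count tables. They were measured by RNA-seq in 6 libraries of NCRM-1, a wild type human induced pluripotent stem cell (hiPSC) line, grown as aggregates for 4 days in vertical wheel bioreactors. Single cells were seeded either in E8, a defined medium for pluripotent cells, as the E8 control (3 libraries), or in E8 with 10 mg/ml polyethylene glycol (PEG) and 0.1 µg/ml heparin sodium salt (HS), as PEG and HS (3 libraries). In both arms 50% of the medium was renewed on day 2, and the comparison asks what the 2 additives, which had been chosen to keep aggregates stable, did to gene expression. The treatment text attached to all 6 libraries describes the medium with additives, so the groups follow the treatment field and the growth text. The libraries carry 1 bioreactor letter per medium, so that the medium and the vessel cannot be told apart, and nothing in the labels says that the replicates were separate cultures. The p-values therefore measure the spread between these libraries, which may be technical.

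HOX genes encode homeodomain transcription factors that give cells of the trunk, hindbrain and limbs their position along the body axis. They lie in HOXA, HOXB, HOXC and HOXD clusters, where the order on the chromosome follows the order of expression: genes with low paralogue numbers, at the 3′ end, are switched on earlier and further towards the head, and genes with high numbers, at the 5′ end, later and further towards the tail. In pluripotent cells the clusters are known for bivalent, Polycomb-repressed chromatin, and retinoic acid, WNT and FGF signals are known to open them from the 3′ end.

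The start regions of HOX genes are known as dense in CpG, the dinucleotide on which Polycomb and DNA methylation act, and 4 of them are shown here to set windows of genes with counts beside that of a gene at 0 in every library. RefSeq (GRCh38.p14) windows from 250 bases before to 50 bases after a start were matched by symbol for 20 of the 39 genes, at 27 starts. In each sequence, printed 5′ to 3′ on the strand of the gene, the capitals mark CG dinucleotides. The HOXA4 window lies at chr7:27130708-27131007 on the minus strand, that of HOXA7 at chr7:27156626-27156925 on the minus strand, that shared by HOXC4 and HOXC5 at chr12:54016638-54016937 on the plus strand, and that of HOXD4 at chr2:176151300-176151599 on the plus strand.
HOXA4: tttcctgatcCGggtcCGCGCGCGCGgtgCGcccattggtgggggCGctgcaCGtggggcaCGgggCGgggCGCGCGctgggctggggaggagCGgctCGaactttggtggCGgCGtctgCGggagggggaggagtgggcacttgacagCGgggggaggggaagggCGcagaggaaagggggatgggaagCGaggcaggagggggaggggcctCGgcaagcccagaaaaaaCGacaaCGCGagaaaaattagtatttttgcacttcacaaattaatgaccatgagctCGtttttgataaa
HOXA7: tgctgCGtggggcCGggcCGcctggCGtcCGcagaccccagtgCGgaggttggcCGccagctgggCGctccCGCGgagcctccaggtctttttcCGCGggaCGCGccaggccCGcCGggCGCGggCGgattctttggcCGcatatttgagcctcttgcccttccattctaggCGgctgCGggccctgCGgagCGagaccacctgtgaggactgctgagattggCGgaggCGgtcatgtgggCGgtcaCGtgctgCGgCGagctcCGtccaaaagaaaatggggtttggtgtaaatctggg
HOXC4 and HOXC5: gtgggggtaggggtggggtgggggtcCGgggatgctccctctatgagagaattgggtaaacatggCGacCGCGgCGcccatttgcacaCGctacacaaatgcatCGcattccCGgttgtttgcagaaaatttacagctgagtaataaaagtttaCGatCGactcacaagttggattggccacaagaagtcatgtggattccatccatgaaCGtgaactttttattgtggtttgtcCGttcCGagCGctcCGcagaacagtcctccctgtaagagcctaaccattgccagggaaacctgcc
HOXD4: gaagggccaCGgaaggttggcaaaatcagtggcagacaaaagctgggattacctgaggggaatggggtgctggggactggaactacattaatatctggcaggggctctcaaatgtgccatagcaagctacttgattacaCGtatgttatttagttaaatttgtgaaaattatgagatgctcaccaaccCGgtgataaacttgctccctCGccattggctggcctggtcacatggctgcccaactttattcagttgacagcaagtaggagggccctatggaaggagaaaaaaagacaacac
HOXA4, with 18 counts over the 6 libraries, had 27 CG dinucleotides in its window, and HOXA7, with 0 counts, had 31. HOXC4 (27 counts) and HOXC5 (1 count) share a window with 15 of them, and HOXD4 (16 counts) had 4. Over the 27 HOX starts the median was 22 (range 0 to 44) and over all 35116 windows of this length it was 14. The 13 starts of the 7 matched HOX genes with at least 10 counts had a median of 15, the 7 starts of 7 genes with 1 to 9 counts a median of 24, and the 7 starts of 6 genes without a count a median of 25. HOXA3 contributes 7 starts, and the window of HOXC4 and HOXC5 enters for both genes, so these medians are descriptions. The letters AGGTCA, the core of a retinoic acid response element, were found on either strand in 0 of the 27 HOX windows and in 13.8% of all windows, TGATNNAT, a pattern for a PBX and HOX pair, in 3 (HOXA2, HOXB1 and HOXD11) and in 7.40%, TAATTA, a homeodomain core, in 2 (HOXD3 and HOXD11) and in 4.84%, and TATAAA in 5 (at HOXA3, HOXA9, 2 starts of HOXA10, and HOXD13) and in 11.5%.

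In both media the HOX clusters were close to silent. The libraries held 26991279 to 36185138 counts in all, and the 39 HOX genes together received 572 of them, 222 in PEG and HS and 350 in the E8 control. Of the 39 genes, 13 (33.3%) were at 0 in all 6 libraries, against 9.01% of all genes, and 0 counts in a library allows a level of up to 0.0829 to 0.111 CPM (counts per 1e6 counts of the library), counting error only. The median total over the 6 libraries was 2 counts for a HOX gene and 1975 for all genes. None of the 39 reached a mean of 1 CPM, which 13556 genes (67.9%) did. Only 12 HOX genes (30.8%) had the 10 counts in all that the test across genes required, against 82.6% of all genes.

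Most of the counts that there were lay in the low paralogue groups, without a steady order from 3′ to 5′ among them. Groups 1, 2, 3, 4 and 5 had 31, 61, 168, 99 and 58 counts. All 15 genes of paralogue groups 1 to 5 had counts, 417 in all or 72.9% of the HOX counts, and 11 of the 12 tested genes were among them. Of the 20 genes of groups 6 to 12, 8 had any count and together they had 16 (2.80%). Group 13 had 139 counts (24.3%), nearly all from HOXB13, so that the run from 3′ to 5′ ended with its most highly counted gene. This division into groups 1 to 5, 6 to 12 and 13 was made after the counts had been seen. HOXA6, HOXA7, HOXA9, HOXA10, HOXA11 and HOXA13 were at 0 in every library, as were HOXC6, HOXC8, HOXC9, HOXC10, HOXC11, HOXC12 and HOXD9. All 10 HOXB genes had at least 1 count, and this cluster held 349 counts (61.0%), HOXA 115 (20.1%), HOXD 73 (12.8%) and HOXC 35 (6.12%).

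**Figure D1:**
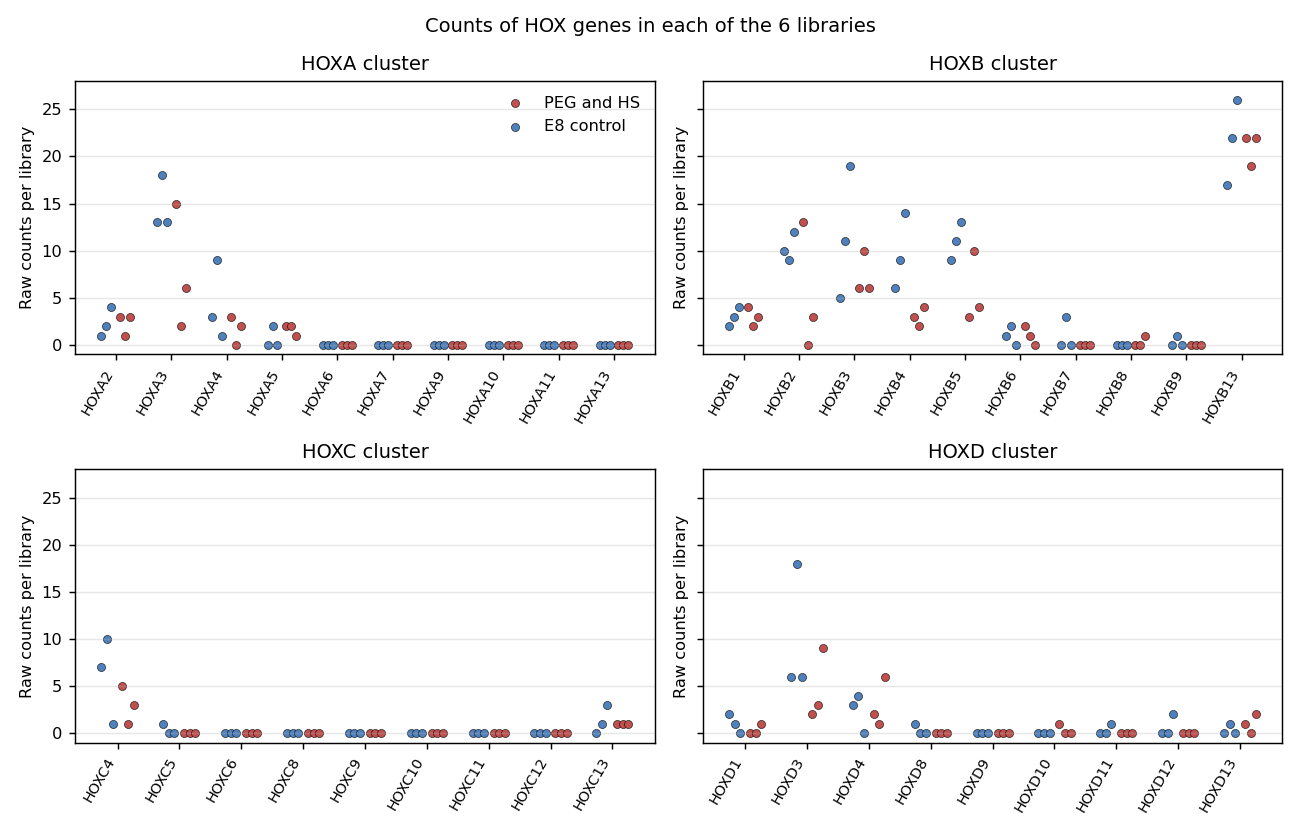
Raw counts of HOX genes (vertical axis) by cluster and paralogue number, with 1 point per library, red for PEG and HS and blue for the E8 control. Counts sit in groups 1 to 5 and at HOXB13, where every library has between 17 and 26, while groups 6 to 12 lie at or near 0 in both media.

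Per length of exon, HOXB13 had the highest level, 0.220 ± 0.00992 CPM per kilobase (SD, n = 6 libraries), and still ranked only at the 31.4th percentile of all genes. HOXB5 followed at 0.143, then HOXB2 at 0.0987, HOXB4 at 0.0968, HOXA3 at 0.0808, HOXD4 at 0.0742 and HOXD3 at 0.0618 CPM per kilobase. From HOXB5 down, neighbours in this order overlapped in their libraries, and with the longest transcript as the length the level of HOXA3 in the E8 control was 0.142 instead of 0.108 CPM per kilobase. The anterior genes HOXB1 and HOXA2, which pattern the hindbrain, stood at 0.0372 and 0.0302 CPM per kilobase.

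The summed HOX level was lower with PEG and HS. It was 2.65, 1.99 and 2.27 CPM in the PEG and HS libraries, and 3.33, 4.19 and 3.40 CPM in the E8 control libraries. Every PEG and HS library lay below every control library, with means of 2.31 ± 0.333 and 3.64 ± 0.477 CPM (SD, n = 3 each) and a ratio of 0.633. Such a separation in this direction held for 19.8% of all tested genes. An exact permutation test of 3 against 3 libraries cannot give a p below 0.1, and no p is given for the sum. The exact binomial 95% intervals of single libraries were 1.503 to 2.58 CPM for the lowest (PEG and HS replicate 2) and 3.52 to 4.95 CPM for the highest (E8 control replicate 2), counting error only. In these bulk libraries, fewer cells with HOX RNA and less HOX RNA per cell cannot be told apart.

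Groups 1 to 5 carried most of the difference. Their summed level was 1.53 ± 0.304 CPM with PEG and HS against 2.81 ± 0.409 CPM for the E8 control, a ratio of 0.546, with 35 to 62 counts against 71 to 107. Leaving out each library in turn gave ratios of 0.490 to 0.598, and without HOXB4 the ratio was 0.573, still without overlap. Group 13 had 24, 20 and 25 counts with PEG and HS, and 17, 24 and 29 in the control, 0.722 ± 0.0149 and 0.722 ± 0.0865 CPM. Among clusters, only HOXB did not overlap between the media (1.47 ± 0.174 and 2.15 ± 0.290 CPM, ratio 0.684). For this sum and that of groups 1 to 5, the share of all tested genes separate in this direction was 19.8%. HOXA (0.428 ± 0.259 and 0.766 ± 0.172 CPM), HOXC (0.123 ± 0.0541 and 0.248 ± 0.121 CPM) and HOXD (0.284 ± 0.215 and 0.476 ± 0.244 CPM) each had a lower mean in PEG and HS, and their libraries overlapped.

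**Figure D2:**
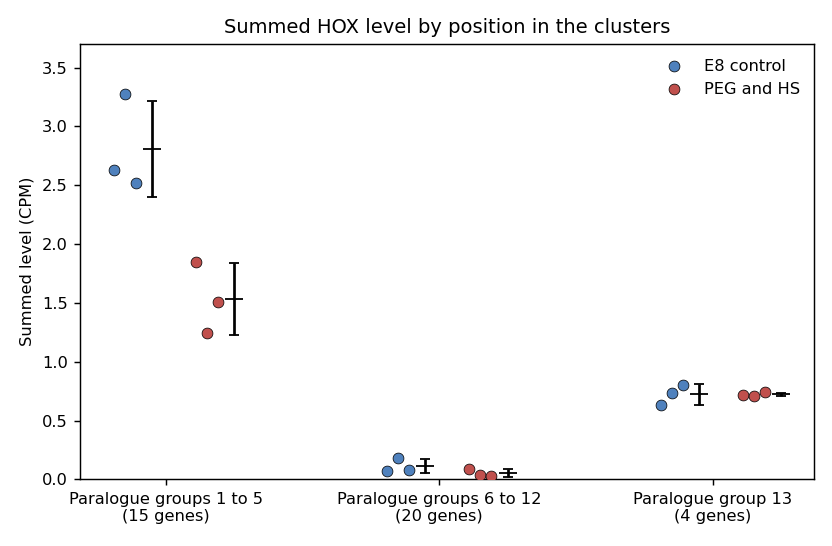
Summed CPM of HOX paralogue groups 1 to 5, 6 to 12 and 13, with 1 point per library and the mean and SD (n = 3) of each medium beside them. The PEG and HS libraries lie below all control libraries for groups 1 to 5, and the media overlap for groups 6 to 12 and 13.

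HOXB4, a factor of the hindbrain and of blood stem cells on chromosome 17 (48575507 to 48578350, minus strand, GRCh38), was the 1 HOX gene that passed the test. It had 3, 2 and 4 counts in the PEG and HS libraries and 6, 9 and 14 in the E8 control libraries. Its libraries did not overlap, with means of 0.0927 ± 0.0239 and 0.296 ± 0.0844 CPM (SD, n = 3 each). The fitted level was 3.12-fold lower with PEG and HS (log2 fold change -1.64, SE 0.544, 95% interval -2.80 to -0.48, adjusted p = 0.0381 by the quasi-likelihood test of edgeR after Benjamini-Hochberg adjustment over 16505 genes). The call was lost when any library other than E8 control replicate 1 was left out (adjusted p up to 0.14 by the same edgeR test), and it rests on 38 counts. HOXB3 transcripts on the same strand share 2.20% of its exon length, and how the authors assigned shared reads is not given in the sources used here.

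The share of genes called was 25.3% over all 16505 tested, 13.1% lower and 12.2% higher with PEG and HS. Of the 12 tested HOX genes, 1 (8.33%) was lower and none was higher by edgeR, 1 had an unadjusted p under 0.05, and DESeq2 and limma-voom called 0 and 1. Among the 2492 tested genes with as few counts as these (10 to 128), 3.69% were called lower and 1.04% higher. In 1 of the 12, HOXB4, every PEG and HS library lay below every control library, against 19.8% of all tested genes and 12.1% of those with 10 to 128 counts, and in none of them above, against 19.5% and 5.14%. The fitted change was negative for 10 of the 12, with a median of -0.94 on the log2 scale. Over all tested genes the median was 0.0031 and 49.1% were negative, and over those with 10 to 128 counts it was -0.13 and 57.0%.

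HOXA3, HOXB3 and HOXD3 of group 3 pattern the pharyngeal arches and the hindbrain, and together they had the most counts of any group, 168. HOXA3 had 15, 2 and 6 counts with PEG and HS, and 13, 18 and 13 in the control (log2 fold change -0.96, SE 0.517, adjusted p = 0.206 by the quasi-likelihood test of edgeR with Benjamini-Hochberg adjustment, as for every adjusted p below). HOXB3 had 6, 10 and 6 against 5, 11 and 19 counts (-0.62, SE 0.499, adjusted p = 0.409), and HOXD3 had 2, 3 and 9 against 6, 18 and 6 (-1.09, SE 0.630, adjusted p = 0.238). No gene of the group was separate between the media by itself, but their sum was, at 0.613 ± 0.0768 and 1.13 ± 0.282 CPM. No other single paralogue group had a separate sum. Of all tested genes 19.8% had every PEG and HS library below every control library, and of those with 10 to 128 counts 12.1%. With each library left out in turn the fitted changes ran from -1.83 (without PEG and HS replicate 1) to -0.57 (without PEG and HS replicate 2) for HOXA3, up to -0.20 (without E8 control replicate 3) for HOXB3 and from -1.91 to -0.39 (without E8 control replicate 2) for HOXD3. The adjusted p of HOXA3 was 0.0417 without PEG and HS replicate 1 and 0.193 to 0.460 in the other 5 edgeR fits, so its value depends on single libraries. Antisense transcripts cover 17.3% of the HOXA3 exons and 14.1% of those of HOXD3. The library kit keeps the strand, and whether the counting used it is not given in the sources used here.

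HOXB2 and HOXB5, the genes on either side of HOXB3 and HOXB4, had a similar spread. HOXB2, which sets hindbrain segments, had 13, 0 and 3 counts with PEG and HS and 10, 9 and 12 in the control (log2 fold change -0.97, SE 0.689, adjusted p = 0.347 by edgeR). Its fitted change was -2.67 without PEG and HS replicate 1 (adjusted p = 0.0361 by edgeR) and reached -0.45 without PEG and HS replicate 2, with an adjusted p of 0.388 to 0.644 in the other 5 fits. HOXB5, which acts in enteric neural crest and lung, had 3, 10 and 4 against 9, 11 and 13 counts (-0.92, SE 0.528, adjusted p = 0.233). Its fitted change was -1.70 without PEG and HS replicate 2 (adjusted p = 0.0487 by edgeR) and reached -0.58 without PEG and HS replicate 1, with an adjusted p of 0.299 to 0.535 in the other 5 fits. In HOXB2 PEG and HS replicate 1 lay above all control libraries, and in HOXB5 PEG and HS replicate 2 lay among them.

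HOXA4 (3, 0 and 2 against 3, 9 and 1 counts) and HOXC4 (5, 1 and 3 against 7, 10 and 1 counts), the other paralogues of HOXB4, had log2 fold changes of -1.34 (SE 0.935, adjusted p = 0.337 by edgeR) and -1.01 (SE 0.774, adjusted p = 0.385). Same-strand transcripts of other genes share 31.3% of the HOXA4 exons and 17.5% of those of HOXC4. HOXD4 had 2, 1 and 6 against 3, 4 and 0 counts, with a fitted change of 0.32 (SE 0.924, adjusted p = 0.846 by edgeR). So 3 of the 4 genes of this group had negative fitted changes, and only HOXB4 did not overlap. Without E8 control replicate 2 the changes of HOXA4 and HOXC4 were -0.29 and -0.47, and that of HOXD4 ran from -0.58 to 0.89 over the left-out libraries.

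HOXB1 and HOXA2, which pattern the hindbrain, were level in the fit, at intervals that leave much room. HOXB1 had 4, 2 and 3 counts with PEG and HS and 2, 3 and 4 in the control, a log2 fold change of -0.0023 with a 95% interval from -1.43 to 1.43. HOXA2 had 3, 1 and 3 against 1, 2 and 4 counts, and an interval from -2.22 to 2.22. Among the HOX genes with 1 to 9 counts in all, which were not tested, HOXA5 had 5 counts with PEG and HS and 2 in the control, HOXB6 3 and 3, and HOXC13 3 and 4. HOXD1 had 1 and 3, HOXD13 3 and 1, HOXB7 0 and 3, and HOXD12 0 and 2. HOXB8 and HOXD10 had 1 count in PEG and HS only, and HOXB9, HOXC5, HOXD8 and HOXD11 1 count in the control only.

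**Figure D3:**
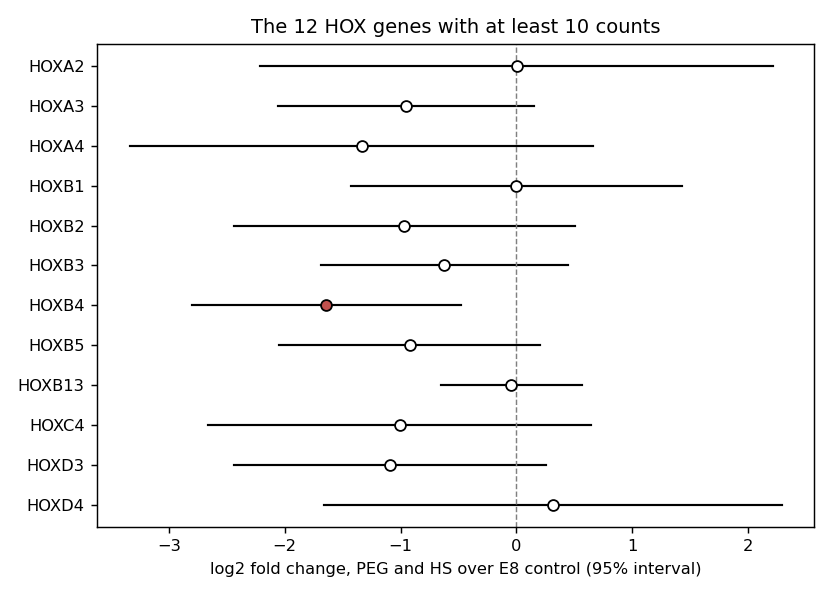
Fitted log2 fold changes, PEG and HS over E8 control, of the 12 tested HOX genes with 95% intervals from edgeR. HOXB4 is the 1 gene whose interval lies wholly below 0, and the interval of HOXB13 (-0.65 to 0.57) is the narrowest.

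HOXB13, at the 5′ end of the HOXB cluster (chromosome 17, 48724763 to 48728750, minus strand), had the most counts of the 39 genes, 128 over the 6 libraries. It is known from the tail end of the embryo and from the prostate. It had 22, 19 and 22 counts in the PEG and HS libraries and 17, 22 and 26 in the E8 control, 0.658 ± 0.0123 and 0.676 ± 0.0452 CPM (SD, n = 3 each). The log2 fold change was -0.043 with an SE of 0.285 and a 95% interval from -0.65 to 0.57 (fold 0.636 to 1.48, adjusted p = 0.935 by edgeR). Genes of other clusters in group 13 were nearly uncounted, with 0 counts for HOXA13, 7 for HOXC13 and 4 for HOXD13. No other annotated gene shares exon sequence with HOXB13. It is set off from HOXB9, which had 1 count, by 98.4 kb, and inside that stretch lie PRAC1 and PRAC2, small genes known from prostate and hindgut. PRAC1 had 22, 10 and 21 counts with PEG and HS and 7, 13 and 21 in the control, and PRAC2 had 16, 8 and 17 and 7, 11 and 13. Both had positive fitted changes, 0.37 (adjusted p = 0.545 by edgeR) and 0.39 (adjusted p = 0.532), and their libraries overlapped. The counted block at this end of the cluster held these 3 genes.

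The genes outside the clusters were mostly well counted. They were looked at after the HOX counts had been seen. HIBADH, beyond the 5′ end of HOXA, had 6601 counts over the 6 libraries, and SKAP2 at the other end had 1083. Around HOXB, SNX11 had 3264, CALCOCO2 4432 and TTLL6 1065 counts, whereas SKAP1, next to HOXB1, had 4. CBX5, which encodes the heterochromatin protein HP1 alpha and lies near the HOXC cluster, had 90951 counts, and MTX2, the next gene beyond HOXD1, had 6415. EVX1 and EVX2, the even-skipped homeobox genes next to HOXA13 and HOXD13, were as low as the HOX genes. EVX1 had 0, 1 and 0 counts with PEG and HS, and 3, 5 and 4 in the control, a ratio of 0.0836 with an exact counting interval of 0.0020 to 0.565 (adjusted p = 0.0392 by edgeR, called lower), a call that was lost without any library other than PEG and HS replicate 2. EVX2 had 2, 0 and 1 against 0, 3 and 0 counts.

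**Figure D4:**
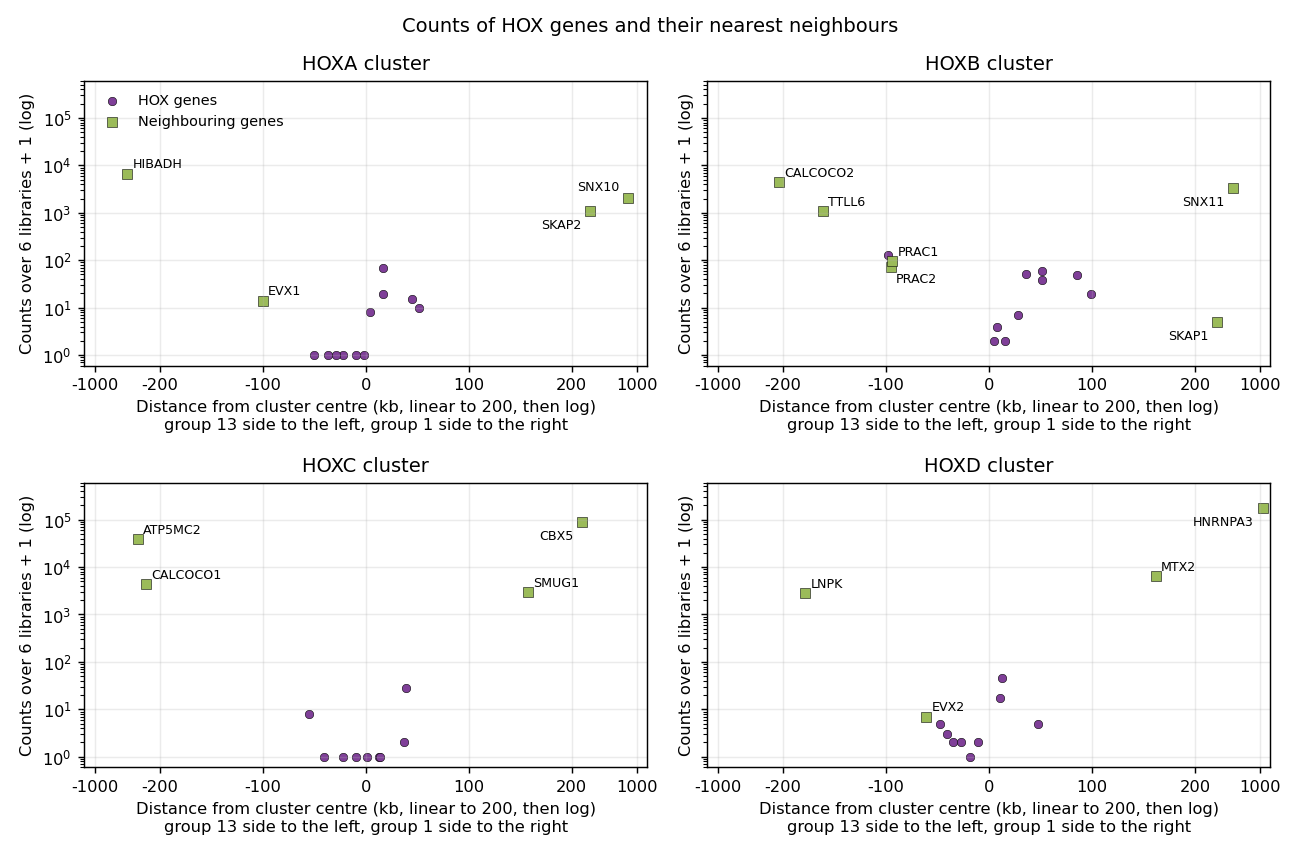
Total counts over the 6 libraries (log axis, count plus 1) of each HOX gene and of the flanking and enclosed genes, by distance along each cluster with group 13 to the left and group 1 to the right. Apart from SKAP1, EVX1 and EVX2, the flanking genes stand at 1065 counts or more, the HOX genes stand at or below 128, and HOXB13, PRAC1 and PRAC2 form a counted block apart from the rest of HOXB.

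The TALE homeodomain proteins, PBX, MEIS and PKNOX, bind DNA together with HOX proteins. All 9 genes of this family were tested, and 7 were lower with PEG and HS, against 13.1% of all genes. MEIS2 was at 1.03 ± 0.163 CPM with PEG and HS and 2.94 ± 0.344 CPM in the control (log2 fold change -1.50, SE 0.190, adjusted p = 2.73e-05 by edgeR), PKNOX2 at 2.24 and 5.84 CPM (-1.38, adjusted p = 1.08e-06) and MEIS3 at 8.80 and 12.7 CPM (-0.53, adjusted p = 0.000186). MEIS1, named outside the rule because it is the usual partner of HOXA9, had 6, 8 and 16 counts against 25, 34 and 28 (-1.54, adjusted p = 0.00624).

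Retinoic acid is the textbook inducer of the 3′ HOX genes. Of 20 tested genes of its pathway 8 were lower and 3 higher, against 13.1% and 12.2% of all genes, with a median log2 fold change of -0.15, and 7 or 8 were lower and 1 or 2 higher with each library left out. CYP26A1, which degrades retinoic acid, had 40, 51 and 48 counts with PEG and HS and 624, 764 and 825 in the control (1.47 and 23.2 CPM, log2 fold change -3.99, adjusted p = 4.33e-13 by edgeR), and CYP26C1 had 4, 6 and 3 and 43, 60 and 54 (-3.56, adjusted p = 1.79e-06). DHRS3, which turns retinaldehyde back into retinol, was at 4.06 and 14.7 CPM (-1.86, adjusted p = 5.85e-10). RARB, a retinoic acid receptor gene named outside the rule, had few counts, 9, 8 and 15 with PEG and HS and 3, 5 and 10 in the control. It was at 0.331 and 0.181 CPM (0.83, adjusted p = 0.255 by edgeR), did not pass and does not stand for the pathway.

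Among 16 tested regulators that act on HOX genes or set the borders of their domains, 3 were higher and 3 lower, near the shares over all genes (12.2% and 13.1%). GBX2, which marks the border of the hindbrain, was higher at 17.3 against 9.58 CPM, with 572, 521 and 559 against 245, 315 and 359 counts (0.85, SE 0.0679, adjusted p = 2.01e-07 by edgeR). NR6A1, which times the switch to posterior HOX genes, was also higher, at 399 against 343 CPM (0.22, adjusted p = 0.000233). EGR2, which activates HOXA2 and HOXB2, was lower with 39, 29 and 28 against 51, 57 and 62 counts (-0.83, adjusted p = 0.00857), and so was GDF11, a signal for posterior identity, at 59.1 against 84.0 CPM (-0.51, adjusted p = 2.47e-08). WNT8A, a posterior WNT ligand, had 1 count in each PEG and HS library and 7, 6 and 4 in the control, a ratio of 0.177 (counting interval 0.0332 to 0.612, adjusted p = 0.0335 by edgeR, a call lost without any library other than E8 control replicate 3). Of the CDX factors, which activate the middle of the clusters, CDX4 was at 2.55 and 2.83 CPM (adjusted p = 0.495), and CDX1 and CDX2 had 2 and 3 counts in all.

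Of 30 genes of the Polycomb complexes and the H3K27 demethylases, 8 were lower and 2 higher, against 13.1% and 12.2% of all genes, with a median of -0.0060 on the log2 scale. BMI1, a subunit of the first Polycomb complex, was at 5.83 against 9.48 CPM (-0.71, adjusted p = 7.43e-06 by edgeR), its partner PHC2 changed by -0.60 (adjusted p = 7.64e-07), and KDM6B, a demethylase, by -0.53 (adjusted p = 7.76e-05). JARID2, an accessory subunit of the second complex, rose by 0.24 (adjusted p = 6.2e-06). PHC1, with far more counts than PHC2, was higher too, at 1407 against 1196 CPM (0.23, adjusted p = 7.48e-06 by edgeR), where PHC2 was at 16.9 against 25.7 CPM. KMT2A, the activating methyltransferase that keeps HOX genes on, changed by -0.035 (adjusted p = 0.428).

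Other homeobox genes that stand beside the HOX clusters or descend from the same ancestor were low too. Of 15 tested, 6 were lower, against 13.1% of all genes and 3.69% of those with 10 to 128 counts, with a median log2 fold change of -1.39. With each library left out in turn 2 (without E8 control replicate 2) to 4 were lower, DLX4 losing its call in all 6 fits and MEOX1 in 5. Their summed level was 1.45 to 1.95 CPM with the additives and 2.85 to 3.79 CPM without. GSX1, of the ParaHox cluster, had 0 counts with PEG and HS, and 4, 5 and 6 in the control, at least 4.98-fold lower when 3 counts over the group are taken as the limit (adjusted p = 0.00694 by edgeR). Its paralogue GSX2 had 0, 1 and 1 against 4, 10 and 5 counts (adjusted p = 0.0186), and lost its call without PEG and HS replicate 1 or E8 control replicate 2. With GSX1 and MEOX1, both at 0 in PEG and HS, set to that limit, the median of the list stayed at -1.39. DESeq2 gave only 3 of the 15 an adjusted p and called 0 of them. Homeobox genes of the head in front of the HOX domain had more counts: of 16 tested, 8 were lower and 2 higher (median -0.53, against the same shares of all genes), with OTX2 at 18.6 against 79.4 CPM (-2.10, adjusted p = 2.08e-13 by edgeR), LHX5 at 5.73 against 29.6 CPM (-2.37, adjusted p = 2.25e-11) and FEZF1 at 3.64 against 19.8 CPM (-2.45, adjusted p = 4.67e-12).

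**Figure D5:**
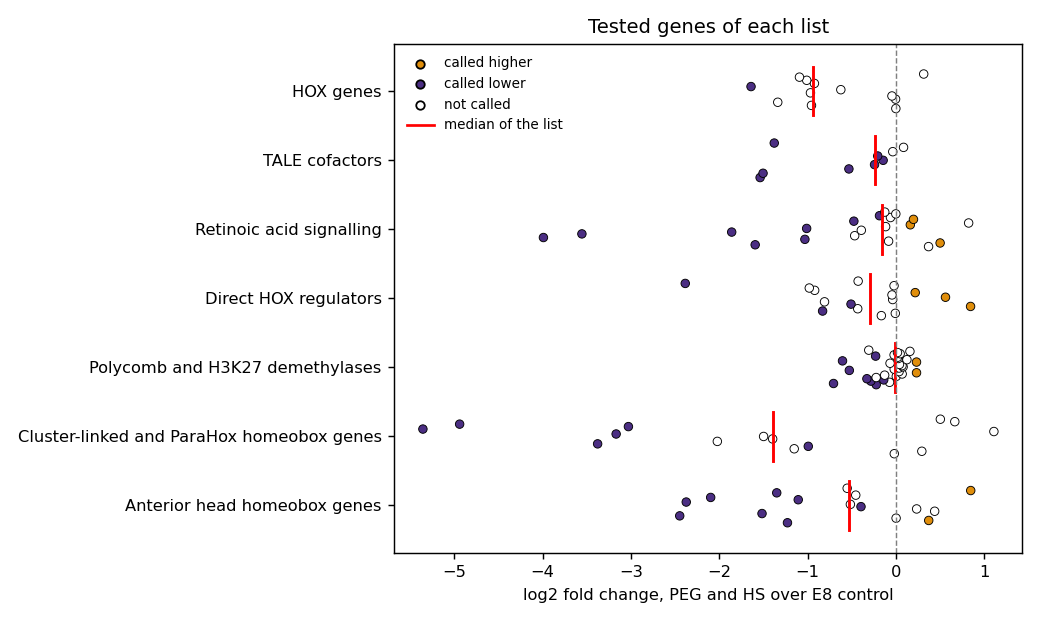
Log2 fold changes, PEG and HS over E8 control, of the tested genes in each list, 1 point per gene, with the list median. The HOX genes, the TALE cofactors and the head and cluster-linked homeobox genes lie mostly below 0, and the Polycomb genes lie around it, while GSX1 and MEOX1, at 0 counts with PEG and HS, are drawn at fitted values that are not bounds.

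The cells carried the markers of their label. The 12 pluripotent cell markers summed to 10586 to 10753 CPM with PEG and HS against 10721 to 10898 CPM in the control, with 4 higher and 5 lower. NANOG was at 185 against 126 CPM (0.55, adjusted p = 6.55e-10 by edgeR) and SOX2 at 273 against 412 CPM (-0.59, adjusted p = 4.79e-10). The shares called over all tested genes, to set beside the counts of each list here, were 12.2% higher and 13.1% lower. Lists for cells that use HOX genes were summed in the same way. Fibroblast and mesenchyme markers (12 tested, 1 higher and 4 lower) summed to 580 to 613 CPM and 497 to 539 CPM, trunk mesoderm and posterior progenitor markers (10 of 12 tested, 1 higher and 3 lower, MSGN1 at 0) to 60.3 to 62.5 CPM and 54.3 to 59.4 CPM, and hindbrain, spinal cord and neural crest markers (16 tested, 2 higher and 3 lower) to 71.1 to 75.8 CPM and 61.4 to 66.8 CPM. Each of these sums was mostly 1 gene that was higher with PEG and HS: THY1 (408 against 264 CPM), NKX1-2 (49.3 against 43.9 CPM) and FOXD3 (51.9 against 41.6 CPM). Without that gene, a sum added after the values were seen, the lists had means of 185 against 260 CPM, with no overlap of the libraries, and of 12.1 against 13.1 CPM and 21.2 against 22.8 CPM, with overlap. Their median log2 fold changes were -0.51, 0.066 and -0.50. The single genes COL1A1 (60.1 against 120.2 CPM), LUM (0.948 against 2.20 CPM), DCN (1.83 against 3.48 CPM), TBX6 (3.02 against 4.19 CPM) and STMN2 (1.92 against 3.67 CPM) were lower. DCN lost its call without 4 of the single libraries, NKX1-2 without E8 control replicates 1 or 2, and TBX6 without E8 control replicate 3, and of the trunk list 0 or 1 was higher and 1 or 2 lower with each library left out. Blood cell markers, relevant because NCRM-1 came from cord blood, summed to 7.42 to 8.21 CPM and 5.89 to 7.49 CPM, HBG1 and HBB were at 0, and none of the 9 tested of 14 was called by edgeR, DESeq2 or limma-voom, with 0 at an unadjusted p under 0.05. Bulk libraries do not show which cells carried the genes of these lists, THY1 and FOXD3 included, so the sums do not show that such cell types were present. The part of these cell types in the HOX counts was not tested.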

How the data were processed

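Polyadenylated RNA was sequenced from 3 libraries of each medium (Illumina stranded kit). The authors deposited 1 table of raw counts per gene and library, made with the nf-core/rnaseq pipeline, Trim Galore 0.6.7 and STAR 2.6.1 on GRCh38. The counting tool and its strand and multi-mapping settings are not given in the sources used here, and reads shared by overlapping genes could move the lowest values. Gene identifiers were matched to GENCODE 44 (61 of 19977 had no match). CPM of single genes in each medium were scaled with the TMM factors of the fits (0.994 to 1.006). Sums, levels per kilobase and all other CPM were computed on library totals. A gene was tested with 10 counts or more over the 6 libraries, after the study's filter, by edgeR 4.0.16 in R 4.3.3 (quasi-likelihood, Benjamini-Hochberg over 16505 genes, adjusted p threshold 0.05), checked on simulated data. Levels per kilobase used the union of annotated exons. One count was 0.0276 to 0.0371 CPM. Intervals of sums are exact binomial. Alternatives were DESeq2 1.42.0, limma-voom (limma 3.58.1), RLE, upper-quartile and plain library size scaling, other filters, a replicate block, each library left out and, added after the data were seen, sums without each library. Named list genes were, per list, the 3 called with the largest absolute changes among those whose higher group had 1 CPM or more in all its libraries, plus called direct regulators, and some genes are not reported here. Other genes were named for their roles after their values were seen. Members and lists were chosen with earlier results of these data known. The replicate numbers did not pair the libraries (correlations -0.0147 to 0.0596). No replicate pair agreed within counting noise (chi-square over its degrees of freedom, 2.58 to 3.52).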

Additional observations from a re-analysis of the deposited data

How the results depend on the processing

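The count of HOX genes called, and called lower, was 1. It was 0 with DESeq2 (adjusted p given for 6 of the 12, not for HOXB4), 0 with a filter of at least 1 count (26 HOX genes fitted), 0 with edgeR's filterByExpr (5 fitted, without HOXB4) and 0 with the replicate block, where HOXB4 had a log2 fold change of -1.63 and an adjusted p of 0.0568 by edgeR. The replicate block raised the calls over all genes from 4173 to 4444. Leaving out 1 library gave 0 to 2 calls: HOXA3 and HOXB2 without PEG and HS replicate 1, HOXB5 without PEG and HS replicate 2, HOXB4 without E8 control replicate 1, and 0 without each of the others. The HOXB4 fold change stayed negative in all 12 alternatives that gave the gene an adjusted p (-1.85 to -1.39) and past the threshold in 5. The median log2 fold change of the tested HOX genes ran from -0.92 to -0.43 over the left-out libraries, with the weakest value without E8 control replicate 2. The ratio of summed levels of all 39 genes ran from 0.585 to 0.685. Directions of values near 0 turned: HOXA2 to -0.0008 with RLE factors, -0.0097 with upper-quartile factors and -0.0003 with the filter of at least 1 count, and from -0.25 to 0.50 without single libraries; HOXB1 to 0.0065 with library size alone and from -0.21 to 0.15 without single libraries. Without single libraries HOXB13 ran from -0.091 to 0.0070 and HOXD4 from -0.58 to 0.89. With 14 to 128 counts per tested gene, depth limits every one of these values, and the causes were not tested. EVX1 lost its call in 7 alternatives and WNT8A in 6.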
